A study of Mus musculus with 12 samples.

Results

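Chromosome 17 of the mouse was followed gene by gene along its length in RNA-seq libraries of the striatal cell lines STHdhQ7 and STHdhQ111. A member was any row of the deposited table that lies on chromosome 17 and reaches 0.5 TPM (transcript abundance scaled to the library total) in at least 3 of the 12 libraries, leaving out by name the major histocompatibility genes that begin with H2- and 16 others. Those 16 are the peptide transport and processing genes Tap1, Tap2, Tapbp, Psmb8 and Psmb9, the tumour necrosis factor genes Tnf, Lta and Ltb, the complement genes C2, C3, C4b and Cfb, the heat shock genes Hspa1a and Hspa1b, and Notch3 and Cdkn1a. The rule found 807 members, of 1408 rows on the chromosome and 29428 rows in all. Of the other rows on chromosome 17, 47 were left out by name (36 of them pass the filter on TPM) and 554 were under the filter. The members comprise 608 protein-coding genes, 89 pseudogenes and 110 other non-coding genes. The chromosome was chosen because its genes were lower in STHdhQ111 cells, so the differences between the lines are given as a description and carry no test.

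There were 4 groups of 3 libraries. Q7-C and Q7-T are nontreated and treated STHdhQ7 cells, whose huntingtin alleles both carry 7 glutamine repeats, and Q111-C and Q111-T are nontreated and treated STHdhQ111 cells, whose knock-in alleles both carry 111. Treatment was 100 ng/mL murine interferon-γ (IFNγ) together with 5 μg/mL lipopolysaccharide (LPS) for 24 h. Both lines are immortalised, were grown at 33 °C and were used within 20 passages. Each genotype is represented by 1 cell line, so the huntingtin genotype and any other difference between the lines cannot be told apart. The libraries of a group are described as biological replicates, but whether they came from separate cultures is not stated, so p-values measure the spread between these libraries only.

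Library depth was 57505990 to 96417834 estimated counts in sum. Of the neuronal markers, Stmn2, Tubb3 and Map2 were detected, whereas Snap25, Syt1 and Dcx were at most 0.0168, 0.025 and 0.018 TPM in any library. The summed level of the 6 neuronal markers in the table was 94.3 to 103.9 TPM in Q7-C and 9.85 to 13.7 TPM in Q111-C. The summed level of the 7 medium spiny neuron markers in the table ran the other way, at 0.368 to 0.881 TPM in Q7-C and 5.18 to 6.93 TPM in Q111-C. Penk made up most of the latter, with means of 0.143 and 4.93 TPM, and Gad1, Gad2 and Bcl11b were near 0 in both groups. The sum of 5 astrocyte markers was 1.05 to 1.62 and 8.69 to 10.8 TPM, mostly through Slc1a3 (means 0.90 and 9.86 TPM). Aldh1l1 (0.364 and 0.0384 TPM) and Gfap (0.0995 and 0.059 TPM) were lower in Q111-C, and Aqp4 was at 0 in both groups. The part of these markers in the differences between the lines was not tested. The sum of 6 mesenchymal markers was 1713 to 5072 TPM over all libraries, and these markers did not share a direction between the lines. Vim was the largest part, with means of 2493 TPM for nontreated STHdhQ7 and 2462 TPM for nontreated STHdhQ111 cells. In the same order, Acta2 was lower (1670 and 43.7 TPM). Col1a1 (265 and 791 TPM), Col1a2 (14.6 and 250 TPM) and Fn1 (220.7 and 645.5 TPM) were higher, and Thy1 was near 0 (0.06 and 0 TPM). The label striatal neuronal thus rests on few of its defining markers in these libraries. Replicate 1 of Q7-C and replicate 2 of Q7-T stood apart from the other libraries of their groups. Their row for 18S ribosomal RNA, which lies on chromosome 17, took 2.18% and 1.85% of the counts against 0.197% to 0.844% in the other 10 libraries. Replicate 2 of Q7-T was also nearer to replicate 1 of Q7-C than to either library of its own group. The main values are given with and without these 2 libraries.

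Mouse chromosome 17 carries the t-complex in its proximal part, clusters of KRAB zinc finger genes, which encode DNA-binding repressors that evolve by tandem duplication, and the H-2 complex, the major histocompatibility locus of the mouse. Between and beyond these lie genes that most cells use, for chaperones, ribosomal proteins, splicing factors and the respiratory chain. Neighbouring genes can share stretches of chromatin, but transcription of each starts from a promoter, the stretch just before its start, which divergent neighbours may share.

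For 5 members, 250 bases before the RefSeq start of transcription (GRCm38.p6) are shown, written 5′ to 3′ on the gene's own strand. They are Arhgap28 and Cyp1b1, which were far higher in STHdhQ111 cells, Nkx2-5 and Ttbk1, which were far lower, and Zfp820 of the zinc finger cluster, picked after its values were seen. Capitals mark 3 promoter elements on either strand, with overlapping matches joined. They are the TATA box with the letters TATAAA, the CCAAT box with those letters and the GC box with the letters GGGCGG. The RefSeq start of Nkx2-5 lies inside the longer gene model of the deposited table.
Arhgap28: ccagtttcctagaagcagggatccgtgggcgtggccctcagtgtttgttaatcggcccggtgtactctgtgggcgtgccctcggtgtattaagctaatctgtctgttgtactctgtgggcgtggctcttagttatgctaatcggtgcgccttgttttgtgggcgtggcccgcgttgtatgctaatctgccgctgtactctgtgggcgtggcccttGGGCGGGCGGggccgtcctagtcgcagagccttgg
Cyp1b1: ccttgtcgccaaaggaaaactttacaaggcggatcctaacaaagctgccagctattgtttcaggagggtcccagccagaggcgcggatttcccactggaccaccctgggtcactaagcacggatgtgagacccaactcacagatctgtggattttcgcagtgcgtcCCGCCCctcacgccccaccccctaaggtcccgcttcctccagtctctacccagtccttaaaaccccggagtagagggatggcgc
Nkx2-5: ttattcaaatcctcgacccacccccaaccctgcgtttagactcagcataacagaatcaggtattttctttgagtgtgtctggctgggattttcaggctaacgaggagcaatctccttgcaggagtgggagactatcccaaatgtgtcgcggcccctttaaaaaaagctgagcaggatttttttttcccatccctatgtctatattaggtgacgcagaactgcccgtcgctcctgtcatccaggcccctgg
Ttbk1: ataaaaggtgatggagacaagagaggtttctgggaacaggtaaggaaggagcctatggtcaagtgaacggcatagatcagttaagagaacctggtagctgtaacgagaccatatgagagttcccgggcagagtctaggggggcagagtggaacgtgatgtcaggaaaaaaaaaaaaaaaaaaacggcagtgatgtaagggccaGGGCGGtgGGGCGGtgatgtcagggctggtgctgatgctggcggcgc
Zfp820: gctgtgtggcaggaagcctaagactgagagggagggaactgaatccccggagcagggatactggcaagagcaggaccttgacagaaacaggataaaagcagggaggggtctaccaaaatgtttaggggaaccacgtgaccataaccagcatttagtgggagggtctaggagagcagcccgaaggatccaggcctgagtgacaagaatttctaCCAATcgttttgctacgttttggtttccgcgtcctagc

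The Arhgap28 stretch (chr17:68004109-68004358, minus strand) holds 2 GC boxes that overlap, and that of Cyp1b1 (chr17:79715062-79715311, minus strand) holds 1. Ttbk1 (chr17:46487676-46487925, minus strand) holds 2 GC boxes and Zfp820 (chr17:21845760-21846009, minus strand) 1 CCAAT element, whereas none of the 3 letter strings is found in the Nkx2-5 stretch (chr17:26841566-26841815, minus strand). Of the 807 members, 543 had a promoter in the RefSeq table by symbol and strand. Among the 75 with a promoter that lay above the shift in both comparisons (defined below), 58.7% held a GC box, 42.7% a CCAAT element and 12% a TATA element, against 61.8%, 40.2% and 6.62% of the 468 other members. Over all 32851 promoters of the table the shares were 32.7%, 33.9% and 12.4%.

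Relative to STHdhQ7 cells, the members were lower in STHdhQ111 cells as a group, in nontreated and in treated cells. The median log2 fold change between the lines was −0.53 without and −0.61 with treatment, where the median of the 15284 genes tested on other chromosomes was 0.00 in both. A typical member was therefore at 69.4% of its STHdhQ7 level without treatment and at 65.5% with it. In nontreated cells 639 members (79.2%) lay below the median of the other chromosomes, and in treated cells 594 (73.6%). Because these are bulk libraries, fewer cells that express a gene and less RNA per cell cannot be told apart. On the TPM scale the median of all genes tested was higher in STHdhQ111 cells, by 0.27 and 0.34 (log2(TPM + 0.5)), and the members' median was at −0.16 and −0.17, so the shift is reported relative to the other chromosomes throughout.

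No other autosome and not the X chromosome had a median as low. In nontreated cells the next lowest was chromosome 19 (median −0.28, 573 genes), then chromosome 12 (−0.23, 572 genes), and the highest was chromosome 14 (0.23). In treated cells chromosome 19 was again next (−0.35) and chromosome 14 highest (0.31). The 37 mitochondrial genes (−1.27 and −1.29) and the 7 genes of the Y chromosome (−0.77 and −0.63) were the exceptions, with lower medians.

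**Figure D1:**
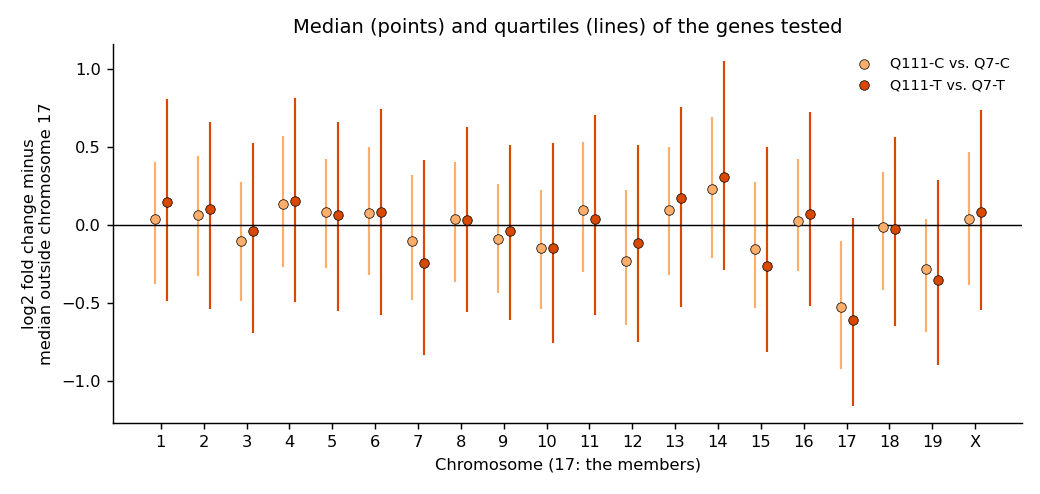
Median log2 fold change (points) with the lower and upper quartiles (lines) of the genes tested on each chromosome, minus the median of all genes outside chromosome 17, in nontreated (light) and treated (dark) cells. Chromosome 17 shows its 807 members, whose medians of −0.53 and −0.61 are the lowest among the autosomes and X; the Y chromosome and mitochondrial genome are not drawn.

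The shift was present in each library rather than in a part of each group. For each library, the median deviation of the members from their own mean over the 12 libraries was taken, minus that of the genes on other chromosomes. It lay between 0.21 and 0.37 (log2) in the 6 STHdhQ7 libraries and between −0.35 and −0.24 in the 6 STHdhQ111 libraries, so the lines did not overlap. The means of 3 libraries (± SD) were 0.27 ± 0.08 for nontreated and 0.30 ± 0.08 for treated STHdhQ7 cells, and −0.25 ± 0.01 and −0.31 ± 0.03 for STHdhQ111 cells. The 2 libraries that stood apart were the highest of their groups, at 0.36 and 0.37. Without the 18S row, the members took 4.77% to 5.32% of the counts in STHdhQ7 libraries and 3.25% to 3.87% in STHdhQ111 libraries. When both libraries were left out, the members' median relative to the other chromosomes was −0.49 in nontreated and −0.60 in treated cells.

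**Figure D2:**
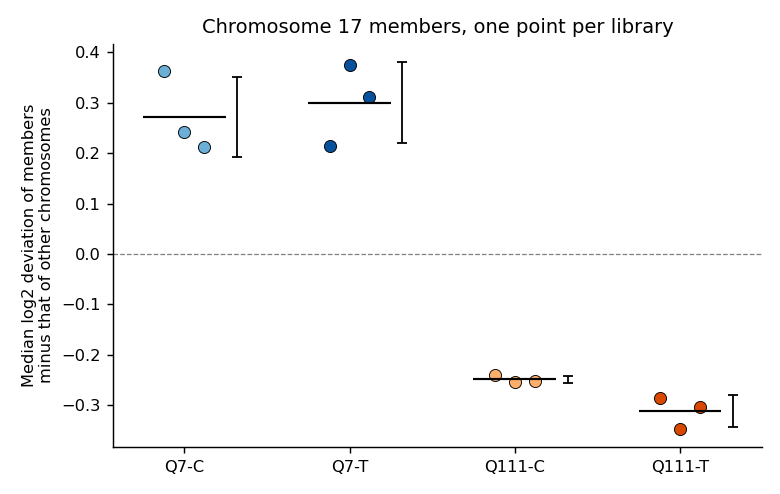
Median log2 deviation of the 807 members from their mean over the 12 libraries, minus that of the genes on other chromosomes, with 1 point per library, the group mean (horizontal line) and the SD (bar to the right, n = 3). All STHdhQ7 libraries lie at or above 0.21 and all STHdhQ111 libraries at or below −0.24.

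Along the chromosome, the members were lower in every 10-Mb bin of start coordinate, in nontreated and in treated cells. The bin medians relative to the other chromosomes ran from −0.35 (10 to 20 Mb, 63 members) to −0.81 (90 to 100 Mb, 8 members) in nontreated cells, and from −0.40 (10 to 20 Mb) to −0.78 (50 to 60 Mb, 64 members) in treated cells. The most gene-rich bins, 20 to 30 Mb with 217 members and 30 to 40 Mb with 176, stood at −0.51 and −0.50 without treatment and at −0.66 and −0.70 with it. In bins of 5 Mb, all 19 were also below 0, and the highest reached −0.18 in each comparison. In each of the 10 bins, the medians of the 6 STHdhQ111 libraries all lay below those of the 6 STHdhQ7 libraries.

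Of 228 10-Mb bins with at least 20 genes on other chromosomes, 6 in nontreated and 4 in treated cells were as low as the highest of the 9 such bins of chromosome 17, and 0 in both comparisons. In treated cells 1 of the 4, on chromosome 13 from 20 to 30 Mb with 86 genes, was at −0.95 and so below each bin of chromosome 17. The 6 lay on chromosomes 3, 7, 12 and 19 and the 4 on chromosomes 11, 13, 18 and 19. The 2 libraries that stood apart differed along the chromosome. Replicate 2 of Q7-T deviated by 0.50 to 0.60 in the bins from 20 to 60 Mb but by −0.01 in the bin from 10 to 20 Mb and by −0.17 in that from 60 to 70 Mb. Without these 2 libraries the bin medians lay between −0.89 and −0.34 in nontreated and between −0.76 and −0.27 in treated cells, all below 0.

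A running median over 31 neighbouring members showed the finer course. In nontreated cells it stayed below 0 in all 777 windows, between −0.83 around Gm4705 (start 66413631) and −0.05 around Gm10509 (start 21690180). In treated cells it ran from −1.13 around Abhd16a (start 35089263) to 0.36 around Zfp52 (start 21535539), and 28 windows were at or above 0. The highest windows of both comparisons fell on the zinc finger cluster, and did so over 51 members as well. Over 21 members the highest window lay in the cluster in nontreated cells (0.12 around Zfp942) but in treated cells at Ppp1r11 (0.76, start 36948356), outside it. Across the 807 members, the rank correlation of the fold change with the start coordinate was weak (Spearman's rho = −0.09 and −0.08), where members share libraries and neighbours and are not independent.

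**Figure D3:**
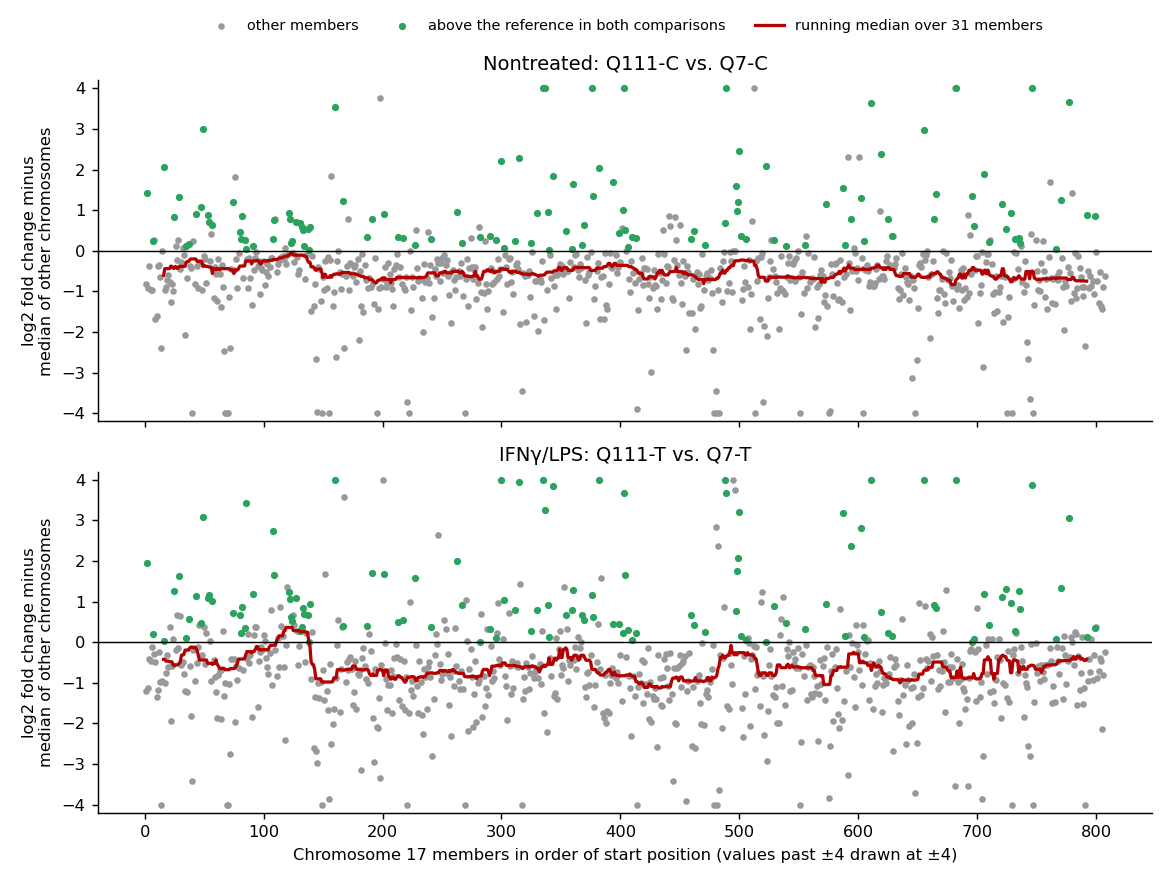
Log2 fold change of each of the 807 members minus the median of the other chromosomes, in order of start position, for nontreated (upper) and treated (lower) cells, with the running median over 31 members (red) and the 120 members above 0 in both comparisons (green). The running median stays below 0 except over the zinc finger cluster in treated cells, where it reaches 0.36.

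The zinc finger cluster holds 31 members with starts from 20945311 to 23173869, of which 21 are named Zfp. For these 21 genes the median was −0.14 in nontreated cells and 0.28 in treated cells, and 16 and 6 of them lay below the other chromosomes' median. The 19 members elsewhere on chromosome 17 with names of Zfp and digits alone had medians of −0.46 and −0.56. Zfp955a, Zfp955b, Zfp119a, Zfp119b and Zfp36l2 were not counted among them. The 277 genes on other chromosomes named in that way had medians of 0.09 and 0.13. Within the cluster, Zfp983, Zfp820, Zfp946, Zfp994 and Zfp947 were higher in STHdhQ111 libraries with no overlap between the lines in TPM, and on counts scaled with TMM this held for Zfp983, Zfp820 and Zfp946. Zfp820 (chr17:21816885-21845772, minus strand) had 3.05, 7.24 and 9.09 TPM in nontreated and 7.15, 2.82 and 6.38 TPM in treated STHdhQ7 libraries, against 11.7, 11.8 and 14 TPM in nontreated and 14.7, 11.9 and 17.6 TPM in treated STHdhQ111 libraries. Its log2 fold changes were 0.70 ± 0.26 in nontreated and 1.09 ± 0.26 in treated cells. Zfp948 (start 21567008) was near 0 without treatment (−0.11 ± 0.38) and higher with it (1.37 ± 0.39). Zfp945 at the distal end went the other way, at −1.48 ± 0.23 and −0.90 ± 0.23. Ppp2r1a, a scaffold subunit of protein phosphatase 2A at the proximal edge of the cluster, followed the rest of the chromosome, at −0.53 ± 0.14 and −0.83 ± 0.14. The cluster's members are near-identical copies in parts, so the authors' counting could have shared reads among them. Without the 2 libraries that stood apart, the median of the 21 genes was −0.37 in nontreated and 0.12 in treated cells, against −0.50 and −0.50 for the 19 elsewhere on the chromosome, so the gap in nontreated cells was smaller.

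The member with the highest mean TPM of each bin shows the size of the shift in abundant transcripts. Tcp1 (chr17:12915701-12924556, plus strand), a subunit of the TRiC chaperonin that folds actin and tubulin, had 267, 393 and 402 TPM in nontreated and 406, 393 and 413 TPM in treated STHdhQ7 libraries, against 300.0, 291 and 295 TPM in nontreated and 230.0, 215 and 269 TPM in treated STHdhQ111 libraries. Its log2 fold changes were −0.56 ± 0.18 in nontreated and −1.21 ± 0.18 in treated cells, and the nontreated lines overlapped in TPM through replicate 1 of Q7-C. Hsp90ab1 (chr17:45567775-45573271, minus strand), the constitutive cytosolic HSP90 chaperone, had 2334, 2439 and 2536 TPM in nontreated and 2907, 1255 and 2764 TPM in treated STHdhQ7 libraries, against 1804, 1795 and 1772 TPM in nontreated and 1496, 1127 and 1437 TPM in treated STHdhQ111 libraries. The STHdhQ111 libraries were lower without overlap in nontreated cells, whereas replicate 2 of Q7-T fell among the treated STHdhQ111 libraries. Its log2 fold changes were −0.78 ± 0.17 in nontreated and −1.11 ± 0.17 in treated cells. Calm2 (chr17:87433412-87446935, minus strand), which encodes the calcium sensor calmodulin, had 664, 811 and 702 TPM in nontreated and 806, 651 and 725 TPM in treated STHdhQ7 libraries, against 470.4, 509 and 485 TPM in nontreated and 450.1, 483 and 392 TPM in treated STHdhQ111 libraries, with log2 fold changes of −0.90 ± 0.19 in nontreated and −1.13 ± 0.19 in treated cells. Each STHdhQ111 library was below each STHdhQ7 library for Calm2 in its condition. Ndufv2 (chr17:66078638-66101559, minus strand), a core subunit of respiratory complex I, also did not overlap, with 138, 116 and 104 TPM in nontreated and 96.2, 167 and 97.3 TPM in treated STHdhQ7 libraries, against 64.9, 62.9 and 61.4 TPM in nontreated and 47.3, 61 and 51 TPM in treated STHdhQ111 libraries and log2 fold changes of −1.29 ± 0.39 in nontreated and −1.71 ± 0.39 in treated cells. When the 2 libraries that stood apart were left out, the values in nontreated and treated cells were −0.60 and −0.93 for Tcp1, −0.64 and −1.22 for Hsp90ab1, −0.81 and −0.92 for Calm2 and −0.98 and −0.99 for Ndufv2.

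Other leading genes of bins were less clear. Rps2, a protein of the small ribosomal subunit, had 1979, 1489 and 1468 TPM in nontreated and 1353, 1614 and 1520 TPM in treated STHdhQ7 libraries, against 1917, 1851 and 1860 TPM in nontreated and 1237, 1417 and 1226 TPM in treated STHdhQ111 libraries, and the lines overlapped in both conditions on this scale. Its log2 fold changes were −0.18 ± 0.30 in nontreated and −0.67 ± 0.30 in treated cells, and without the 2 libraries that stood apart they were 0.17 and −0.28, so that the direction in nontreated cells turned. Rpl36, of the large subunit, rested on the libraries that stood apart, with 611, 297 and 246 TPM in nontreated and 297, 826 and 294 TPM in treated STHdhQ7 libraries, against 255, 199.6 and 232 TPM in nontreated and 168, 276 and 171 TPM in treated STHdhQ111 libraries and log2 fold changes of −1.18 ± 0.62 in nontreated and −1.80 ± 0.63 in treated cells. They were −0.41 and −0.63 without those libraries. Gm49909 (−0.92 ± 0.25 in nontreated and −1.64 ± 0.25 in treated cells) shares its strand and position with Myl12a and Myl12b in GENCODE M21, so its reads cannot be separated from theirs. Dynlt1b (0.27 ± 0.37 in nontreated and −0.14 ± 0.37 in treated cells) is one of several near-identical dynein light chain copies and is uncertain for the same reason. It was at 0.57 and 0.57 without the 2 libraries that stood apart, so that its direction in treated cells turned. Gm6741, a pseudogene, was at −0.04 ± 0.32 in nontreated and 0.37 ± 0.32 in treated cells. The row with the highest level in the bin from 30 to 40 Mb is the 18S ribosomal RNA row itself, CT010467, which varied up to 18970 TPM in replicate 1 of Q7-C from 1964 in replicate 2 of Q111-T, in libraries made from poly(A) RNA.

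The shift is given next by level of expression and class of gene. In nontreated cells, the median relative to the other chromosomes was −0.24 for the 149 members under 1 TPM, −0.44 for 266 at 1 to 10 TPM, −0.56 for 284 at 10 to 50 TPM and −0.71 for 108 at 50 TPM or more. In treated cells the same classes were at −0.45, −0.41, −0.66 and −1.12. Genes at 50 TPM or more on other chromosomes were also lower, at −0.15 and −0.38. Within a class, members were different from the genes of other chromosomes by −0.31, −0.50, −0.56 and −0.56 in nontreated cells and by −0.56, −0.57, −0.67 and −0.74 in treated cells. Without the 2 libraries that stood apart, the 4 classes were at −0.31, −0.50, −0.48 and −0.53 in nontreated cells, with little difference from 1 TPM up, and at −0.33, −0.41, −0.66 and −0.85 in treated cells. By class of gene, protein-coding members stood at −0.55 and −0.63, pseudogenes at −0.18 and −0.34, and other non-coding genes at −0.71 and −0.71. The members between 33 and 38 Mb, around the H-2 complex, stood at −0.51 and −0.82 (137 genes), and those outside it at −0.53 and −0.57.

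At the edge of the filter, the members just inside were Gm49911, Gm23078 and Vit, with third-highest TPM values of 0.501, 0.503 and 0.508. The rows just outside were Ip6k3, Gm19807 and Eif3s6-ps3, at 0.491, 0.498 and 0.499. Vit, which encodes an extracellular matrix protein, had 0.471, 0.575 and 0.508 TPM in Q7-C and was listed at 0 in each Q111-C library.

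Members that escaped the shift were defined as those above the median of the other chromosomes in both comparisons. There were 120 (14.9% of the members), where 36.7% of the genes on other chromosomes met the same rule, and 35.6% of all genes tested. Another 549 members (68.0%) were below in both comparisons, 45 were above only in nontreated cells and 93 only in treated cells. Of the 120, 68 (8.43%) also had no overlap between the lines in TPM, with STHdhQ111 higher in each condition. This stricter rule was met by 3381 of all 16127 genes tested (21%) and by 21.6% of those on other chromosomes. Judged 1 condition at a time, 114 members (14.1%) were higher without overlap in Q111-C and 258 (32%) lower, where 38.8% and 12.6% of all genes were. In Q111-T, 133 (16.5%) were higher and 203 (25.2%) lower, where 33.9% and 12.5% of all genes were. Pseudogenes escaped in 23 of 89 cases and protein-coding genes in 86 of 608, and the shares of these classes on other chromosomes are not given here. At 50 TPM or more 5.56% of the members escaped against 24.8% of those under 1 TPM, where 20.2% and 37.4% of the genes at these levels on other chromosomes did. The strict rule was met by 45 of the 68 when overlap was judged on counts scaled by library size with TMM, where 14.3% of all genes had STHdhQ111 higher without overlap in both conditions. After leaving out the 2 libraries that stood apart, 119 members escaped, 99 of them among the 120, where 33.7% of all genes did. The strict rule was then met by 81 members (10.0%), 66 of them among the 68, and by 23.8% of all genes.

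The clearest escapes were expressed far more in STHdhQ111 cells. Cyp1b1 (chr17:79701537-79715061, minus strand), a cytochrome P450 that oxidises steroids and aromatic compounds, had 2.85, 5.44 and 5.52 TPM in nontreated and 6.18, 3.22 and 5.74 TPM in treated STHdhQ7 libraries, against 104, 116 and 130.1 TPM in nontreated and 89.2, 93.2 and 102 TPM in treated STHdhQ111 libraries. The STHdhQ111 libraries were each above each STHdhQ7 library, and the log2 fold changes were 4.39 ± 0.18 in nontreated and 3.87 ± 0.18 in treated cells. Arhgap28 (chr17:67842713-68004120, minus strand), a GTPase-activating protein for RhoA, had 0.208, 0.148 and 0.288 TPM in nontreated and 0.419, 0.047 and 0.195 TPM in treated STHdhQ7 libraries, against 22.1, 23.6 and 24.4 TPM in nontreated and 11.3, 8.01 and 11.5 TPM in treated STHdhQ111 libraries, with log2 fold changes of 6.41 ± 0.48 in nontreated and 5.26 ± 0.46 in treated cells. Abcg1 (chr17:31057675-31117988, plus strand), a cholesterol exporter, had 0, 0.0295 and 0.0756 TPM in nontreated and 0.0501, 0.0141 and 0.0215 TPM in treated STHdhQ7 libraries, against 1.57, 1.87 and 1.8 TPM in nontreated and 4.27, 4.07 and 4.27 TPM in treated STHdhQ111 libraries. As no Q7-T library exceeded 12 estimated counts for Abcg1, Q111-T was at least 73.2-fold higher against that floor per library.

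Stap2 (chr17:55997077-56005584, minus strand), a signalling adaptor, had 1.41, 1.2 and 0.913 TPM in nontreated and 1.27, 0.593 and 1.01 TPM in treated STHdhQ7 libraries, against 17.4, 19.7 and 20.8 TPM in nontreated and 24.5, 25.5 and 23.5 TPM in treated STHdhQ111 libraries, and Six2 (chr17:85684277-85688274, minus strand), a homeobox transcription factor of kidney and craniofacial mesenchyme, had 0.292, 0.378 and 0.278 TPM in nontreated and 0.233, 0.419 and 0.155 TPM in treated STHdhQ7 libraries, against 4.69, 5.42 and 5.19 TPM in nontreated and 2.74, 3.14 and 4.16 TPM in treated STHdhQ111 libraries. In both genes the lines were separate in each condition. The log2 fold changes of Stap2 were 3.64 ± 0.27 in nontreated and 4.29 ± 0.28 in treated cells. Notch4 (chr17:34564268-34588503, plus strand), a Notch receptor of endothelial cells that lies inside the H-2 region, had 0.137, 0.102 and 0.0826 TPM in nontreated and 0.128, 0.133 and 0.0859 TPM in treated STHdhQ7 libraries, against 2.93, 3.33 and 2.91 TPM in nontreated and 2.9, 0.811 and 2.77 TPM in treated STHdhQ111 libraries. Rnf39, a RING finger protein of the same region, was at 5.87, 5.94 and 4.97 TPM in Q111-C and at 0.231 TPM or less in Q7-C. The others named by the rule were low in both lines. Pde9a, a cGMP phosphodiesterase, was at least 14.2-fold higher in Q111-C and at least 3.82-fold in Q111-T, and the serine protease gene Prss22 at least 4.48-fold and 6.89-fold. The pseudogenes Gm5815 and Gm20541 were at least 1.98-fold and 2.05-fold higher in Q111-C. Pde9a and Notch4 overlap genes on the opposite strand, and whether the counting used strand is not given in the sources used here.

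Escapes stood next to genes that followed the shift. In order of start between 31057675 and 31658892, Abcg1 was higher in STHdhQ111 cells, Rsph1 lower, Pde9a higher, Wdr4 lower, Ndufv3 higher, and farther on Cbs higher and U2af1 lower, chosen here after their values were seen. Wdr4 (chr17:31494322-31519974), a subunit of a tRNA methyltransferase, and Ndufv3 (chr17:31520115-31531331), a small subunit of complex I, are neighbours that run in opposite directions from nearby starts. Wdr4 had 14.7, 17.6 and 18.4 TPM in nontreated and 19.3, 17.3 and 21.4 TPM in treated STHdhQ7 libraries, against 12, 10.2 and 10.1 TPM in nontreated and 6.87, 4.34 and 5.77 TPM in treated STHdhQ111 libraries. Ndufv3 had 6.67, 6.4 and 5.35 TPM in nontreated and 4.45, 9.27 and 6.29 TPM in treated STHdhQ7 libraries, against 16.3, 15.2 and 14.5 TPM in nontreated and 18.8, 18.2 and 18.7 TPM in treated STHdhQ111 libraries. Both pairs of groups were separate in each gene and in opposite directions, at −0.97 ± 0.18 in nontreated and −2.21 ± 0.19 in treated cells for Wdr4 and 0.97 ± 0.38 in nontreated and 0.93 ± 0.38 in treated cells for Ndufv3. Wdr4 was also called in the interaction of line and treatment, at −1.24 ± 0.25 (adjusted p = 0.0141, edgeR). U2af1 (chr17:31647081-31658892, minus strand), a splicing factor that reads the 3′ splice site, had 93.8, 81.8 and 87.8 TPM in nontreated and 94.5, 55.1 and 91 TPM in treated STHdhQ7 libraries, against 73.1, 71 and 76.4 TPM in nontreated and 49.5, 39.6 and 42.1 TPM in treated STHdhQ111 libraries, with log2 fold changes of −0.61 ± 0.17 in nontreated and −1.25 ± 0.17 in treated cells. Ndufv3 was the exception among the 5 members named Nduf that encode complex I subunits, which leaves out Ndufaf7. The medians of the 5 were −0.93 and −1.30 against −0.23 and −0.45 for 33 such subunit genes on other chromosomes. Without the 2 libraries that stood apart these medians were −0.50 and −0.42 against 0.16 and 0.07.

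**Figure D4:**
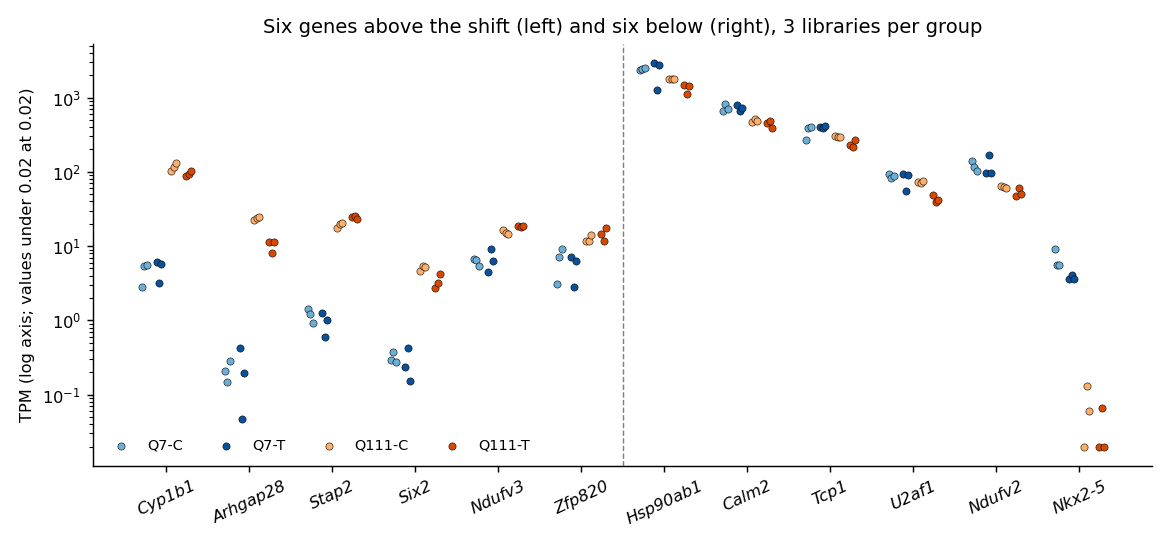
TPM on a log axis in each library, 3 per group, for 6 members that were higher in STHdhQ111 cells (left of the dashed line) and 6 that were lower (right), with values under 0.02 drawn at 0.02. Cyp1b1, Arhgap28, Stap2 and Six2 separate the lines by more than the spread within each group, whereas the abundant genes Hsp90ab1, Tcp1 and U2af1 differ by less than 2-fold in nontreated cells.

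The members that fell furthest below the shift were low or moderate in STHdhQ7 cells and near 0 in STHdhQ111 cells. Nkx2-5 (chr17:26838664-26845009, minus strand), a homeobox factor known for heart development, had 9.06, 5.55 and 5.54 TPM in nontreated and 3.62, 4.06 and 3.56 TPM in treated STHdhQ7 libraries, against 0, 0.133 and 0.0606 TPM in nontreated and 0, 0.0669 and 0 TPM in treated STHdhQ111 libraries. No Q111 library exceeded 12 estimated counts, and the gene was at least 43.6-fold lower in Q111-C and at least 23.8-fold lower in Q111-T. Cldn9 (chr17:23682584-23684026, minus strand), a tight junction claudin, had 4.93, 7.08 and 5.74 TPM in nontreated and 2.41, 3.81 and 1.97 TPM in treated STHdhQ7 libraries, against 0.265, 0.079 and 0.0722 TPM in nontreated and 0.149, 0.151 and 0 TPM in treated STHdhQ111 libraries, and was at least 30.5-fold and 15.4-fold lower. Ttbk1, a kinase of neurons that phosphorylates tau, had 0.482, 0.534 and 0.700 TPM in Q7-C and no more than 0.0301 TPM in any STHdhQ111 library. Gm11127, a protein-coding gene of the H-2 region, had 5.79, 5.42 and 6.68 TPM in nontreated and 46.2, 23.4 and 46.2 TPM in treated STHdhQ7 libraries, against 0.741, 0.659 and 0 TPM in nontreated and 0.376, 0.458 and 0.819 TPM in treated STHdhQ111 libraries, with log2 fold changes of −3.99 ± 0.76 in nontreated and −6.46 ± 0.84 in treated cells. The non-coding genes Gm49985, BC023719 and 2700054A10Rik and the pseudogene Stk19-ps1 completed this group, and Gm49985 was listed at 0 in each STHdhQ111 library. BC023719, Ttbk1, 2700054A10Rik and Gm11127 overlap genes on the opposite strand. In all, 155 members (19.2%) had STHdhQ111 lower without overlap in TPM in both conditions, where 7.0% of all genes tested and 6.36% of those on other chromosomes did. On the scaled counts the figure was 302 members, with 14.2% of all genes, and without the 2 libraries that stood apart, where fewer values can overlap, it was 322 in TPM (39.9%), with 13.8% of all genes.

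Grouped by role, each of 9 gene lists had a median below 0 in both comparisons. The lists hold 213 genes, of which 198 are members. Ribosome and translation genes stood at −0.82 and −1.39, with 20 and 21 of 21 below the other chromosomes' median and 0 escapes. The 6 cytosolic ribosomal protein genes among them had medians of −0.91 and −1.45, with 6 and 6 below. The 70 such genes on other chromosomes were at −0.43 and −1.02, with 64 and 70 of them below. Leaving out the 2 libraries that stood apart, the ribosome and translation list was at −0.49 and −0.94 (18 and 21 below). The 6 genes were then at −0.46 and −0.72 (4 and 6 below) and the 70 at 0.03 and −0.37 (30 and 63 below). The mitochondrial list stood at −0.86 and −1.05 (15 and 14 of 17 below), with Ndufv3 its single escape, and at −0.50 and −0.79 (15 and 12 below) without those libraries. Chaperone, proteasome and ubiquitin genes stood at −0.56 and −0.68 and splicing and RNA-binding genes at −0.57 and −0.67. All 17 of the former and all 21 of the latter were below in both comparisons, and 0 escaped. Leaving out both libraries, these lists were at −0.46 and −0.74 (16 and 17 below) and at −0.54 and −0.90 (21 and 21 below). For comparison, the median of all 807 members was −0.53 and −0.61.

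Chromatin and transcription genes stood at −0.51 and −0.53 (35 and 33 of 41 below), with Ppard, Nfya, Mta3 and Six2 as escapes. DNA repair and cell cycle genes stood at −0.51 and −0.49, with 18 and 16 of 19 below and Mdc1, a DNA damage checkpoint mediator, as the escape. Growth signalling genes stood at −0.56 and −0.55 (24 and 19 of 28 below), with Igf2r, Dll1, Ptk7 and Ptprs as escapes. Matrix and cytoskeleton genes stood at −0.95 and −0.42, where Thbs2, Pacsin1, Col11a2, Tnxb and Ltbp1 escaped out of 19. Thbs2, which encodes the matrix protein thrombospondin 2, had 14.2, 24.9 and 27.6 TPM in nontreated and 27.3, 9.94 and 25.1 TPM in treated STHdhQ7 libraries, against 56, 65 and 66.3 TPM in nontreated and 48.7, 29.3 and 52 TPM in treated STHdhQ111 libraries, and Ltbp1, which encodes a protein that binds latent TGF-β, had 18, 31.2 and 40.0 TPM in nontreated and 22.5, 7.76 and 19.4 TPM in treated STHdhQ7 libraries, against 75.6, 79.2 and 82.9 TPM in nontreated and 48.9, 30.5 and 55.4 TPM in treated STHdhQ111 libraries. In both genes the lines did not overlap in either condition. Inflammation-related genes stood at −0.53 and −0.35 (16 and 12 of 20 below), with Ier3, Nfkbie and Eif2ak2 as escapes. Among the escapes named for these 5 lists, only Mta3, Six2, Thbs2, Tnxb, Ltbp1, Ier3 and Nfkbie met the stricter rule of no overlap in TPM between the lines. With both of those libraries left out, these 5 lists were all below 0 as well, from −0.85 for matrix genes to −0.48 for repair genes in nontreated cells and from −0.77 for matrix genes to −0.44 for inflammation-related genes in treated cells.

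The response to IFNγ/LPS was not used to choose the chromosome and could be tested. In STHdhQ7 cells, 17 members rose (2.11%) and 3 fell (0.372%) by edgeR's quasi-likelihood test (called: 2-fold change or more, with a Benjamini-Hochberg adjusted p below 0.05), where 2.93% and 1.11% of all genes tested did (4.04% in either direction). In STHdhQ111 cells 53 rose (6.57%) and 17 fell (2.11%), where 8.28% and 2.96% of all genes did (11.2% in either direction). The shares among the members are below those of all genes, but the rule leaves out by name many of the genes on this chromosome that respond to interferon. When the 36 left-out genes that pass the filter were added, 47 genes (5.58%) were called in STHdhQ7 cells in place of 20 and 97 (11.5%) in STHdhQ111 cells in place of 70, above the 4.04% and 11.2% of all genes. Of the members that rose, 1 of 17 in STHdhQ7 cells (Cacna1h) and 6 of 53 in STHdhQ111 cells (among them Tekt4, Hs3st6, Vhl-ps1 and Olfr753-ps1) passed the filter on TPM only through the treated group in which they are high. The median change of the members with treatment was 0.05 in STHdhQ7 and −0.07 in STHdhQ111 cells. Without the 2 libraries that stood apart, 23 members (2.85%) were called in STHdhQ7 and 89 (11.0%) in STHdhQ111 cells, among them 18 of the 20 and all 70, where 4.53% and 13.4% of all genes were called in the same fit. There were 18 members called in both lines, of which 14 rose in both, 3 fell in both and 1, Angptl4, went in opposite directions. In either line 72 members (8.92%) were called. The shares of all genes called in both lines or in 1 line alone are not given here. Of the 120 escapes, 13 (10.8%) were called in either line, and of the 687 other members 59 (8.59%), where 12.3% of all genes tested were.

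Sod2, Eif2ak2, Ier3 and Ubd rose in both lines, with changes given on the log2 scale. Sod2 (chr17:13006846-13037398, plus strand), the mitochondrial superoxide dismutase, had 12, 11.9 and 11.6 TPM in nontreated and 55.3, 43 and 49.7 TPM in treated STHdhQ7 libraries, against 8.36, 7.97 and 7.74 TPM in nontreated and 78.6, 86.5 and 70.5 TPM in treated STHdhQ111 libraries. All treated libraries were above all nontreated ones in each line, with log2 fold changes of 2.24 ± 0.21 (adjusted p = 3.07e-05, edgeR) in STHdhQ7 and 3.40 ± 0.22 (adjusted p = 9.92e-07) in STHdhQ111. Eif2ak2, the double-stranded RNA-activated kinase PKR, rose by 1.21 ± 0.23 (adjusted p = 0.00799, edgeR) and 1.83 ± 0.23 (adjusted p = 0.000199). Its TPM in Q7-T reached 78.2, 35 and 82.1, of which replicate 2 lay within the Q7-C range. The Eif2ak2 call in STHdhQ7 cells was lost in each limma fit on log2 TPM and when only the compared groups were fitted. Ier3, an early response gene that NF-κB induces, rose by 1.79 ± 0.21 (adjusted p = 0.000253, edgeR) and 2.16 ± 0.21 (adjusted p = 2.73e-05). Ubd, the ubiquitin-like modifier FAT10, had 0.111, 0.565 and 0 TPM in nontreated and 7.44, 6.58 and 9.79 TPM in treated STHdhQ7 libraries, against 1.53, 0.367 and 0.613 TPM in nontreated and 17.3, 18.4 and 17.8 TPM in treated STHdhQ111 libraries, and rose by 5.34 ± 0.92 (adjusted p = 0.00423, edgeR) and 4.50 ± 0.86 (adjusted p = 0.00317). The Ubd call in STHdhQ7 cells was lost when only the compared groups were fitted. Of the 20 inflammation-related members, 3 rose and 1 fell in STHdhQ7 cells, where 2.93% and 1.11% of all genes tested did. In STHdhQ111 cells 9 rose and 1 fell, where 8.28% and 2.96% of all genes did. This list was chosen with earlier results of these data known.

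Several of the largest rises began from 0 or nearly so. The pseudogene Gm8810 and the gene Gm19684, which lie in the H-2 region, reached 9.88, 9.99 and 10.8 and 12.7, 8.61 and 12 TPM in Q111-T and were at least 23.8-fold and 54.6-fold higher than in Q111-C. In STHdhQ7 cells they were at least 2.96-fold and 9.48-fold higher, and the Gm8810 call there was lost when only the compared groups were fitted. Reads of H-2 genes of similar sequence could be shared with Gm8810 and Gm19684, and this was not tested. Unc93a2, a putative membrane transporter, rose in STHdhQ7 cells by 5.69 ± 0.53 (adjusted p = 3.36e-05, edgeR) and was at least 13.8-fold higher in Q111-T than in Q111-C. Tekt4, a tektin of cilia, was listed at 0 in each nontreated library and was at least 3.43-fold and 7.54-fold higher in treated cells. The Tekt4 call in STHdhQ7 cells was lost with limma on log2(TPM + 0.5) and log2(TPM + 1). The pseudogenes Olfr753-ps1 and Vhl-ps1 were at least 12.5-fold and 3.95-fold higher in Q111-T. Adgrf5, an adhesion G protein-coupled receptor, was called in Q7-T, where replicate 2 was highest (0.16, 0.838 and 0.0691 TPM). Its fitted log2 fold change of 4.87 was 2.12 without the 2 libraries that stood apart, and its call was lost under 10 of 24 alternatives.

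Of the genes that fell in both lines, Slc5a7, the choline transporter of cholinergic neurons, had 0.607, 0.706 and 1.68 TPM in nontreated and 0.108, 0 and 0.0964 TPM in treated STHdhQ7 libraries, against 2.2, 3.19 and 3.51 TPM in nontreated and 0.688, 0.427 and 0.62 TPM in treated STHdhQ111 libraries. On the log2 scale it fell by 3.77 ± 0.73 in STHdhQ7 cells (adjusted p = 0.00914, edgeR) and in STHdhQ111 cells by 2.26 ± 0.66 (adjusted p = 0.0342). The call in STHdhQ111 cells was lost on leaving out any 1 of the 6 STHdhQ111 libraries, and that in STHdhQ7 cells with limma on log2(TPM + 1) and when only the compared groups were fitted. Pla2g7, the phospholipase that degrades platelet-activating factor, changed by −1.27 ± 0.20 (adjusted p = 0.00236, edgeR) and −1.13 ± 0.20 (adjusted p = 0.00202), and Neurl1b, a ubiquitin ligase of Notch signalling, by −1.30 ± 0.28 (adjusted p = 0.0175, edgeR) and −1.24 ± 0.28 (adjusted p = 0.00883). The Neurl1b call in STHdhQ7 cells was lost without replicate 1 of Q7-C (edgeR adjusted p = 0.0549) and without the 2 libraries that stood apart. It was also lost with limma on log2(TPM + 0.1) and when only the compared groups were fitted.

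**Figure D5:**
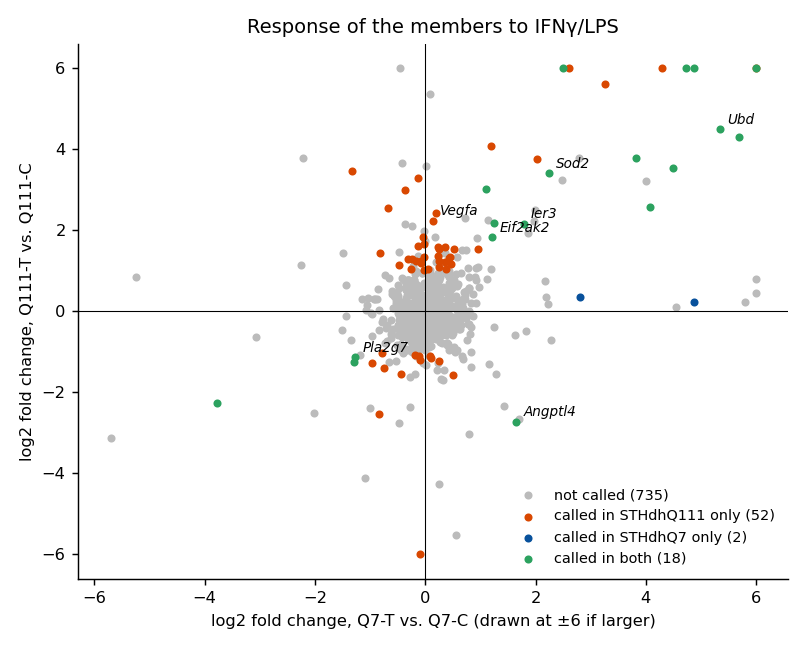
Log2 fold change of each member with IFNγ/LPS in STHdhQ7 (horizontal axis) and STHdhQ111 cells (vertical axis), coloured by where it was called, with values past ±6 drawn at ±6. There were 52 members called in STHdhQ111 cells alone, 2 in STHdhQ7 cells alone and 18 in both, and Angptl4 lies in the lower right quadrant.

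The difference in response between the lines was tested as the interaction of line and treatment. It was called for 15 members with a higher and 7 with a lower response in STHdhQ111 cells (edgeR), where 3.52% and 1.2% of all genes were called (4.71% in either direction), so the shares of 1.86% and 0.867% are below the background. The count was 46 (5.7%) without the 2 libraries that stood apart, where 8.52% of all genes were called in the same fit, and 14 without replicate 2 of Q111-C. Angptl4 (chr17:33773750-33781830, minus strand), a secreted inhibitor of lipoprotein lipase, had 1.38, 1.05 and 1.16 TPM in nontreated and 2.78, 3.49 and 3.46 TPM in treated STHdhQ7 libraries, against 72.4, 71.3 and 70.0 TPM in nontreated and 10.8, 8.47 and 11.1 TPM in treated STHdhQ111 libraries. It rose in STHdhQ7 cells and fell in STHdhQ111 cells, where the nontreated level was far higher, and the interaction was −4.37 ± 0.39 (adjusted p = 0.000172, edgeR). Plin4, a lipid droplet coat protein, fell in STHdhQ111 cells by 2.54 ± 0.42 (adjusted p = 0.00133, edgeR), whereas its interaction did not pass (−1.70 ± 0.57, adjusted p = 0.117).

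Daxx and Vegfa were below the shift's reference in nontreated STHdhQ111 cells and above it after treatment. Daxx (chr17:33909414-33915590, plus strand), a chaperone of histone H3.3, had 30.8, 34.3 and 36 TPM in nontreated and 45.2, 21 and 40.5 TPM in treated STHdhQ7 libraries, against 25.5, 28.5 and 27.3 TPM in nontreated and 155, 114 and 141 TPM in treated STHdhQ111 libraries. Its interaction was 2.23 ± 0.20 (adjusted p = 0.000172, edgeR). Vegfa (chr17:46016993-46032369, minus strand), the vascular endothelial growth factor, had 20.3, 30.6 and 33.4 TPM in nontreated and 37.1, 13.4 and 34.5 TPM in treated STHdhQ7 libraries, against 16.2, 18.8 and 17.3 TPM in nontreated and 85.2, 64.2 and 82 TPM in treated STHdhQ111 libraries, with an interaction of 2.10 ± 0.26 (adjusted p = 0.000909, edgeR). In both genes each Q111-T library was above each of the other 9 libraries. Dll1, a Notch ligand, had 0.315, 0.608 and 0.306 TPM in nontreated and 0.399, 0.146 and 0.321 TPM in treated STHdhQ7 libraries, against 0.461, 0.562 and 0.533 TPM in nontreated and 5.16, 3.53 and 3.2 TPM in treated STHdhQ111 libraries and an interaction of 3.37 ± 0.47 (adjusted p = 0.00193, edgeR). Hs3st6, a heparan sulfate sulfotransferase, was at 3.19, 4.34 and 3.24 TPM in Q111-T and at no more than 0.578 TPM in the other libraries. It passed the filter only through Q111-T, in which it is high, so its interaction of 4.78 ± 0.92 is given as a description. Clic5, a chloride intracellular channel protein, was at 2.89 ± 0.63 (adjusted p = 0.0201, edgeR), Sod2 at 1.16 ± 0.28 (adjusted p = 0.0329) and Tnfsf9, a TNF family ligand that stimulates T cells, at 1.32 ± 0.34 (adjusted p = 0.043). The calls for Clic5, Sod2 and Tnfsf9 were lost under 8, 10 and 13 of their alternatives.

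Further calls rest on a group at 0. Cacna1h, a T-type calcium channel, was listed at 0 in each Q111-C library and was at least 10.6-fold higher in Q111-T (0.566, 0.163 and 0.351 TPM). In STHdhQ7 cells its log2 fold change with treatment was 2.49 ± 0.40. It passed the filter on TPM only through Q7-T, so its call there carries no weight. Tpsab1, a mast cell tryptase, was at 0.113, 0.0916 and 0.195 TPM in Q111-C and listed at 0 in each Q111-T library, and against the floor no fold can be given as Q111-C itself is near it. Both interactions (adjusted p = 0.00196 and 0.0068, edgeR) were lost in each limma fit on log2 TPM. Cacna1h overlaps Tpsg1 on the opposite strand.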

How the data were processed

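The samples were 12 libraries of poly(A) RNA, sequenced in pairs, in 4 groups of 3. Per the labels and the study's methods, the authors trimmed reads with Cutadapt, aligned them with HISAT2 to GRCm38 and assembled and quantified them with StringTie against Ensembl. The deposited table gives, for each gene and library, estimated counts and TPM that the authors made with StringTie and Ballgown. Whether the counting used strand is not given in the sources used here. The estimated counts lay near multiples of 4 more often than other even numbers, so 12 counts were taken as the floor of 3 read pairs.

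A gene was tested when it reached 0.5 TPM in at least 3 libraries (16127 genes). Counts were rounded and fitted for all 12 libraries together, with 4 group means, in edgeR 4.0.16 (TMM scaling, quasi-likelihood test, R 4.3.3), with Benjamini-Hochberg adjustment over all genes tested. A call needed an adjusted p under 0.05 and a change of at least 2-fold. Fold changes are log2 with standard errors. Those of members between the lines, and medians over members, are descriptions. In text on bins, lists and classes, medians have the median of 15284 genes on other chromosomes subtracted. Alternatives used limma 3.58.1 on log2(TPM + 0.5), DESeq2 1.42.0, other filters and left-out libraries. The fit was also run on simulated counts with the same spread for every gene and no libraries that stood apart. That run does not show how the fit behaves on these data. Other work used Python 3.11.15.

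Named genes are the member with the highest mean TPM in each 10-Mb bin, up to 12 escapes and 8 members furthest from the shift without overlap between the lines, up to 6 rises and 4 falls in each treatment comparison without overlap, up to 6 interaction calls and genes of the lists. Some genes that this rule names are not reported here. Genes of the zinc finger cluster and the neighbours of Ndufv3 were chosen after their values were seen. The members and gene lists were chosen with earlier results of these data known. No 2 replicates agreed within sampling noise. Of the 807 members, 803 were matched by identifier to GENCODE M21, and 377 overlap a gene on the opposite strand there. Promoter sequences are from RefSeq (GRCm38.p6).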

Additional observations from a re-analysis of the deposited data

Results flagged for a closer look

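For 11 of the members described above, a difference in the response to IFNγ/LPS between the cell lines was called by the interaction term of the edgeR fit. The difference is given as the log2 fold change in STHdhQ111 minus that in STHdhQ7 cells. It was positive for Sod2 (1.16), Dll1 (3.37), Hs3st6 (4.78), Daxx (2.23), Clic5 (2.89), Vegfa (2.10) and Tnfsf9 (1.32). It was negative for Wdr4 (−1.24), which was chosen after its values were seen, and for Angptl4 (−4.37), the one member called in opposite directions. The values for Cacna1h (7.37) and Tpsab1 (−6.17) are fitted against a group listed at 0, depend on the prior count of the fit, and were not called in any of the 3 limma fits, so no difference is read from them. Hs3st6 (4.78) and Cacna1h passed the filter on TPM only through 1 group, so no difference is read from Hs3st6 either. Groups of 3 libraries were not searched for single outlying values.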

How the results depend on the processing

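Relative to the other chromosomes, the members' median stayed negative under the alternatives run, from −0.55 to −0.41 in nontreated and from −0.65 to −0.46 in treated cells. Without that reference, limma on log2(TPM + 0.5), (TPM + 0.1) and (TPM + 1) gave −0.162, −0.175 and −0.148 in nontreated and −0.167, −0.184 and −0.145 in treated cells, where the median of all genes is positive on that scale. Leaving out 1 library gave −0.526 to −0.46 (−0.46 without Q7-C replicate 1) and −0.626 to −0.563, and leaving out both libraries that stood apart, an alternative chosen after seeing the data, −0.463 and −0.529. The share of members below was 82.86% at a filter of 1 TPM and 85.66% at 5 TPM, and 77.32% to 79.55% without 1 library. In bins of 5 Mb the highest median was −0.1767 in nontreated and −0.1828 in treated cells. The highest running median was 0.1246 and 0.7591 over 21 members (in treated cells outside the zinc finger cluster) and −0.1651 and 0.1848 over 51.

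Calls for treatment in STHdhQ7 cells (20) numbered 13 with limma (TPM + 1), 13 at 5 TPM, 12 when only the compared groups were fitted, 47 with the genes left out by name, and 18 to 23 without 1 library. In STHdhQ111 cells (70) they numbered 44 at 5 TPM, 97 with the genes left out by name and 55 to 80 without 1 library. Interaction calls (22) numbered 52 with DESeq2, 46 without both libraries, and 14 (without Q111-C replicate 2) to 31 (without Q7-C replicate 1) without 1 library. Clear escapes numbered 45 on TMM-scaled counts in place of 68, and members lower in STHdhQ111 without overlap 302 on those counts (14.2% of all genes tested) and 322 without both libraries (13.8%) in place of 155 (7.0%). All escapes numbered 112 to 120. The Cacna1h interaction turned to −0.267 and −0.242 with limma (TPM + 0.5 and + 1). The cause of these changes was not tested. With the replicate block the calls were 19, 62 and 20, of which 18, 62 and 20 were shared with the fit without it, and both medians stayed negative. Same-numbered samples deviated together (correlation over 0.1) in 6 of 18 pairs of groups and numbers, with values from −0.416 to 0.303 over the 18. With so few libraries per group, these values cannot show whether same-numbered samples shared a batch, and the labels do not say. The interaction was not run on the compared groups alone.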

Other observations

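The 36 chromosome 17 genes that were left out by name and passed the filter, most of them H-2 and complement genes, did not follow the course of the members. Relative to the other chromosomes their median log2 fold change was 0.62 in nontreated cells, where 12 of 36 were below, and −0.10 in treated cells, where 19 of 36 were below. Of the 36, 14 (38.9%) were above in both comparisons, where 36.7% of the genes on other chromosomes were. The members between 33 and 38 Mb had medians of −0.51 and −0.82.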
